A study of Mus musculus with 8 samples.

Results

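A set of 47 genes that build or serve the contractile apparatus of striated muscle was followed through 8 RNA-seq libraries of mouse skeletal myogenic cells. The genes were taken by name from a list of thin filament, thick filament, troponin, Z-disc and muscle enzyme genes that leaves out the myosin heavy chains. All 47 were among the 24980 genes of the count table, and 46 passed the filter on low counts and were tested. Fresh teratoma-derived progenitors (TF) were sorted as CD31-, CD45-, EGFP+, α7-integrin+ and VCAM-1+ cells from teratomas that E14-EGFP embryonic stem cells, a single line, had formed in irradiated and cardiotoxin-injured tibialis anterior muscles of NSG-mdx4Cv mice, an immunodeficient host without dystrophin. The expanded teratoma-derived cells (TE) were such cells grown on gelatin in myogenic expansion medium to passage 8. Fresh satellite cells (SF) came from adult muscle and had no culture, and expanded satellite cells (SE) were grown in the same way to passage 8. Each group had 2 biological replicates. The age and strain of the satellite cell donors are not given in the sources used here. Their genetic background may differ from that of the single embryonic stem cell line. Origin and genetic background thus cannot be told apart in TF against SF or in TE against SE. Because TF had formed in a host and SF in its own muscle, origin and the tissue of residence cannot be told apart in TF against SF, and the step from fresh to expanded cells joins the removal from tissue, the culture and the passages.

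The sarcomere is the repeating unit of a myofibril. Thin filaments of actin, lined with tropomyosin, troponin and nebulin, are anchored in Z-discs, and myosin thick filaments are held in register by titin and the M-band. Many of these proteins exist as fast, slow, cardiac or fetal isoforms that are encoded by separate genes, and developing skeletal muscle transiently uses genes that the adult keeps mainly for heart. Undifferentiated satellite cells are known to transcribe little of this program, apart from desmin, and myoblasts switch it on when they leave the cell cycle to form myotubes.

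The libraries held between 11930881 and 21146554 counts, and all levels below are normalized counts, that is, counts divided by the median-ratio size factor of the library. A group whose libraries both had at most 3 counts was treated as at the limit of detection. Every library was unlike its replicate by more than sampling noise. The myogenic progenitor markers (Pax7, Myf5, Myod1, Itga7, Vcam1, Sdc4, Cdh15 and Des, itself in the set) differed between groups. They summed to 24008 and 29651 in TF, 66014 and 77573 in SF, 48762 and 54440 in SE and 35768 and 36791 in TE. By the rule for calls given below, Pax7, Myf5 and Vcam1 were lower and Des and Cdh15 higher in both expanded groups than in their fresh groups. The summed fibro-adipogenic markers (Pdgfra, Ly6a, Dpt, Dcn, Col1a1, Lum) reached 235371 and 238441 in TF against 33031 and 57678 in SF, 3155 and 7688 in SE and 351 and 143 in TE. The summed endothelial markers (Pecam1, Cdh5, Kdr, Tek, Emcn, Egfl7) were 3725 and 1084 in TF, 4779.7 and 6085 in SF, 70.1 and 60.1 in SE and 41.9 and 32.4 in TE although CD31+ cells were sorted out of TF. The markers of pericytes and smooth muscle (Rgs5, Pdgfrb, Cspg4, Myh11, Acta2, Notch3) summed to 25870.2 and 29755 in TF, 32157 and 32563 in SF, 9357 and 26117 in SE and 26799 and 26487 in TE. The fibro-adipogenic and endothelial markers were thus higher in the fresh libraries, and the sums of the pericyte and smooth muscle markers overlapped between TF and TE. That overlap holds for the sums only. By the rule for calls given below, Acta2 was higher in TE than in TF (9.86% of all tested genes were). The other 5 (Rgs5, Pdgfrb, Cspg4, Myh11, Notch3) were lower (16.2% of all tested genes were). The part of these markers in the differences between fresh and expanded cells was not tested. In these bulk libraries, fewer cells of a type and less RNA per cell cannot be told apart.

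The 47 genes took a small share of the reads in fresh cells and a larger one after expansion. They held 0.180% and 0.155% of all counts in the SF libraries and 0.430% and 0.310% in the TF libraries. After expansion they held 1.79% and 3.29% in SE and 1.90% and 1.89% in TE. A gene was called where edgeR's quasi-likelihood test gave an adjusted p under 0.05 and the fold change was more than 25% above 1 in either direction. On this rule 40 of the 46 tested genes were higher in SE than in SF, against a background of 20.9% of all 17582 tested genes, and 0 were lower, against 19.8%. In TE against TF, 35 were higher (background 9.86%) and 2 were lower (background 16.2%). In TF against SF, 24 were higher (background 15.1%) and 1 was lower (background 9.13%). The expanded cells differed least: 0 genes were higher in TE than in SE (background 3.15%) and 4 were lower (background 4.07%). Where 0 genes were called, edgeR also gave 0 at an unadjusted p under 0.05, and DESeq2 called 0. Median log2 fold changes of the 46 genes were 4.32, 2.70, 1.57 and -0.35 in these 4 comparisons, where all tested genes had medians of -0.23, -0.18, 0.08 and 0.00. The plot of levels shows the order of the groups gene by gene.

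**Figure D1:**
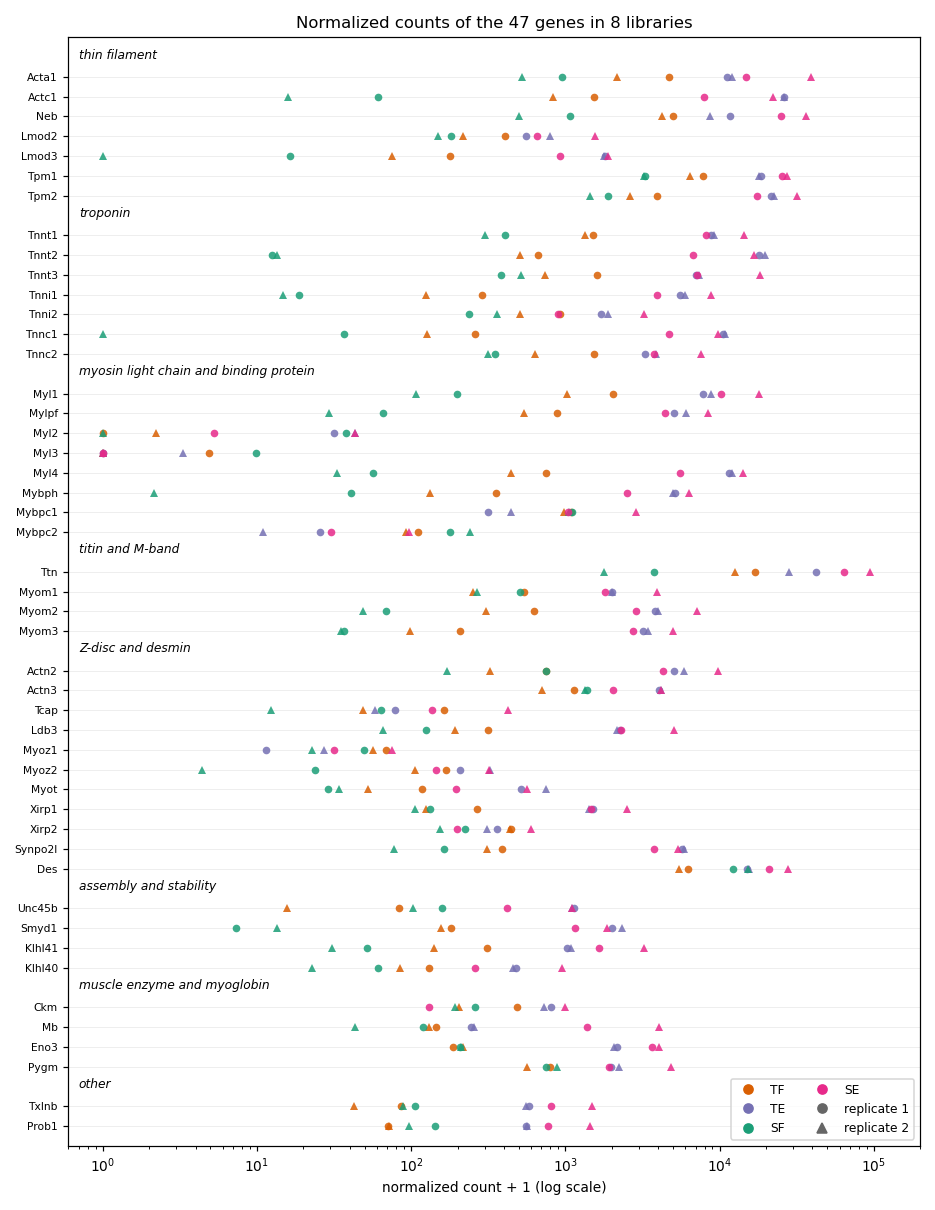
Normalized count plus 1 of each of the 47 genes (log scale) in the 8 libraries, by role; color gives the group and the marker shape the replicate. The expanded cells (TE, SE) lie to the right of the fresh cells (TF, SF) for most genes. The exceptions include Mybpc1, Mybpc2, Myoz1, Xirp2, Ckm, Myl2 and Tcap.

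All 7 thin filament genes were higher in SE than in SF, 6 of the 7 were higher in TE than in TF, and 6 of the 7 were higher in TF than in SF. Tpm1, an α-tropomyosin and the gene of this class with the highest mean count, had 3309.6 and 3256 normalized counts in SF, 7792 and 6474 in TF, 25458 and 27361 in SE and 18474 and 17952 in TE. The groups did not overlap and ran in the order SF, TF, TE, SE. Tpm1 rose in satellite cells (log2 fold change 3.20, standard error 0.21, adjusted p = 6.14e-06) and in teratoma-derived cells (log2 fold change 1.41, standard error 0.19, adjusted p = 0.000686). Acta1, skeletal muscle α-actin, had 950.3 and 526 normalized counts in SF, 4692 and 2168 in TF, 14826 and 39362 in SE and 11239 and 12087 in TE. Both TE libraries lay under both SE libraries, but the SE replicates differed 2.65-fold and TE against SE did not pass (log2 fold change -1.196, standard error 0.48, adjusted p = 0.202). Actc1, cardiac α-actin and the sarcomeric actin of early skeletal muscle, had 59.9 and 14.8 normalized counts in SF, 1526 and 829 in TF, 7951 and 22229.8 in SE and 26254 and 26225 in TE. Every expanded library was above both fresh groups, and TE was above both SE libraries without passing the test (log2 fold change 0.82, standard error 0.52, adjusted p = 0.444).

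Neb, the nebulin gene, whose giant protein runs along the thin filament, had 1074 and 502 normalized counts in SF, 5028 and 4219 in TF, 25016 and 36196 in SE and 11683 and 8734 in TE. The groups did not overlap, and Neb was 1 of the 4 genes called lower in TE than in SE (log2 fold change -1.56, standard error 0.34, adjusted p = 0.0246), a call that was lost when either TE library was left out. The rise of Neb in TE over TF (log2 fold change 1.198, standard error 0.34, adjusted p = 0.0282) was also lost without either TF library or without TE replicate 1. Lmod3, a leiomodin that nucleates actin filaments, had 15.3 and 0 normalized counts in SF, 178 and 73.8 in TF, 921 and 1885 in SE and 1808 and 1794 in TE, and Lmod2, its relative, had 179.6 and 149 normalized counts in SF, 404 and 217 in TF, 654 and 1552 in SE and 556 and 797 in TE. Lmod2 rose in satellite cells (log2 fold change 2.94, standard error 0.46, adjusted p = 0.000827) and did not pass in TE against TF (adjusted p = 0.0711). Tpm2, β-tropomyosin, had 1902 and 1449 normalized counts in SF, 3930.0 and 2616 in TF, 17374 and 31801 in SE and 21556 and 22618 in TE, and both TE libraries lay between the SE replicates. The call of Tpm2 in TF over SF (log2 fold change 1.13) was lost with median-ratio size factors (adjusted p = 0.0527).

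The promoters of Acta1 and Actc1 are shown because the actins were among the pairs of abundant sarcomeric genes whose order turned between groups. They are shown with the promoter of Tnnt2, which had the largest rise in satellite cells, and that of Mybpc2, which was called lower in TE than in TF. Each is the 250 bases before the RefSeq start site on GRCm38.p6, at chr8:123894776-123895025, minus strand (Acta1), chr2:114052876-114053125, minus strand (Actc1), chr1:135836084-135836333, plus strand (Tnnt2) and chr7:44524670-44524919, minus strand (Mybpc2). Capitals mark E-boxes (CANNTG, the core bound by MyoD family factors), CArG boxes (the site of serum response factor) and MEF2 sites.
Acta1: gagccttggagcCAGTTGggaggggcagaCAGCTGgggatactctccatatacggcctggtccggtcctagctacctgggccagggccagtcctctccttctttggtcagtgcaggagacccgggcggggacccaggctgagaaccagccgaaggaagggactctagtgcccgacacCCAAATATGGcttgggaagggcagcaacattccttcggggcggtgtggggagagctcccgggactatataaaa
Actc1: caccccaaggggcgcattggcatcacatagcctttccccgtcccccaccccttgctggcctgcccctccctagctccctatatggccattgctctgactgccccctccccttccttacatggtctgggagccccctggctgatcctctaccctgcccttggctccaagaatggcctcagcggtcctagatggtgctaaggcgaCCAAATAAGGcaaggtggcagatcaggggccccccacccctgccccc
Tnnt2: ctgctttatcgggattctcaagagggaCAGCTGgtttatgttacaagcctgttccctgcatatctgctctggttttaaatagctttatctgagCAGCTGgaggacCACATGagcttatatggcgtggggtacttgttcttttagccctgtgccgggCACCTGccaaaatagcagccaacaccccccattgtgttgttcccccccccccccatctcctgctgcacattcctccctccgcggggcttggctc
Mybpc2: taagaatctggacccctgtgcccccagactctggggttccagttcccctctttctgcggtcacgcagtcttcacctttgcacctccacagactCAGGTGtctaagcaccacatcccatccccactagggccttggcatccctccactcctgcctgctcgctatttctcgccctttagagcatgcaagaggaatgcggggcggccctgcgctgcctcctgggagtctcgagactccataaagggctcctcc
Acta1 held 2 E-boxes and 1 CArG box, and Actc1 held 1 CArG box and 0 E-boxes. Tnnt2 held 4 E-boxes, 2 of them CAGCTG, and Mybpc2 held 1 E-box. A second RefSeq start of Tnnt2 had 1 E-box in its own window. RefSeq windows were at hand for 35 of the 47 genes, with 42 promoters. CAGCTG stood in 45.2% of these promoters (17 genes) and in 13.0% of all 32851 promoters of the same length. The wider E-box CANNTG, which contains CAGCTG, stood in 88.1% against 66.2%. CArG boxes stood in 14.3% against 1.47%, in the promoters of Acta1, Actc1, Ldb3, Myl3 and Myom1, and MEF2 sites in 16.7% against 2.92%, in those of Klhl41, Myom3, Myoz2, Synpo2l, Ttn and Xirp2. All 4 patterns read the same on both strands. The 17 tested genes with CAGCTG had a median log2 fold change of 5.29 in SE over SF and 2.30 in TE over TF, and the 17 tested genes without it had 4.40 and 3.20. A match in the window is a description of its letters only.

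Troponin is the calcium switch of the thin filament, with a tropomyosin-binding subunit (T), an inhibitory subunit (I) and a calcium-binding subunit (C). All 7 troponin genes were higher in SE than in SF and 6 were higher in TE than in TF. For all 7, both TF libraries lay above both SF libraries, an order that 31.009% of all tested genes had. By the test, 6 of the 7 passed in TF over SF. Of these calls in TF over SF, that of Tnnc1 was lost with DESeq2 (adjusted p = 0.0901) and with only TF and SF in the fit (adjusted p = 0.134), that of Tnnt3 with median-ratio size factors (adjusted p = 0.0562), and those of Tnnt3 and Tnnc2 without TF replicate 1 (adjusted p = 0.222 and 0.0646) or SF replicate 1. Tnnt2, cardiac troponin T, had 11.5 and 12.5 normalized counts in SF, 669 and 511 in TF, 6722 and 16829.6 in SE and 18064 and 19611 in TE. It was low in SF and rose more than any other of the 46 genes (log2 fold change 10.11, standard error 0.57, adjusted p = 3.28e-06), and TE lay above both SE libraries without passing (log2 fold change 0.70, standard error 0.36, adjusted p = 0.33). Tnnt1, slow skeletal troponin T, had 404 and 302 normalized counts in SF, 1511 and 1337 in TF, 8112 and 14319 in SE and 8845 and 9165 in TE. Tnnt3, fast skeletal troponin T, had 385 and 512 normalized counts in SF, 1593 and 741 in TF, 7161 and 18209 in SE and 7079.6 and 7335 in TE, and the expanded and fresh libraries did not overlap.

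Tnni1, slow troponin I, had 17.8 and 13.7 normalized counts in SF, 286 and 124 in TF, 3915 and 8870.5 in SE and 5556 and 5981 in TE. Tnni2, fast troponin I, had 237 and 361 normalized counts in SF, 927 and 509 in TF, 893 and 3249.7 in SE and 1711 and 1903 in TE. The groups of Tnni2 overlapped, since SE replicate 1 was below TF replicate 1, and its rise passed in satellite cells (log2 fold change 2.98, standard error 0.55, adjusted p = 0.00224) but not in TE against TF (adjusted p = 0.0786) nor in TF against SF (adjusted p = 0.0825). Tnnc1, the slow and cardiac troponin C, had 35.7 and 0 normalized counts in SF, 259.7 and 127 in TF, 4687 and 9796 in SE and 10581 and 10902 in TE. It rose in satellite cells (log2 fold change 8.91, standard error 0.92, adjusted p = 7.23e-05) and had the largest rise of the called genes in TE over TF (log2 fold change 5.85, standard error 0.76, adjusted p = 0.000455), with SF replicate 2 at 0 counts. Tnnc2, fast troponin C, had 349 and 312 normalized counts in SF, 1542 and 634 in TF, 3751 and 7537 in SE and 3311 and 3859 in TE. In mouse, troponin genes stand in pairs of a T and an I gene. Tnnt2 and Tnni1 lay 25.4 kb apart on chromosome 1, and Tnnt3 and Tnni2 lay 54.4 kb apart on chromosome 7 (GENCODE M21, GRCm38). The first pair had log2 fold changes of 10.11 and 8.85 in SE over SF, and the second had 5.01 and 2.98.

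Myosin light chains clasp the neck of the myosin head, and myosin binding proteins C and H decorate the thick filament. Of the 7 tested genes of this class, 4 (Myl1, Mylpf, Myl4, Mybph) were higher in SE than in SF, in TE than in TF and in TF than in SF. Myl1, the fast essential light chain, had 197 and 106 normalized counts in SF, 2039.7 and 1029 in TF, 10209 and 18078 in SE and 7822 and 8748 in TE, and of its 31-base words 19.5% occurred also in other transcripts, those of the pseudogene Mylf-ps, so its reads are less certain. Myl4, the embryonic and atrial light chain, had 56.1 and 31.9 normalized counts in SF, 745 and 443 in TF, 5550.3 and 14263 in SE and 11442 and 12073 in TE. Both TE libraries stood between the SE replicates, and the difference did not pass (log2 fold change 0.27, standard error 0.41, adjusted p = 0.81). Mylpf, the fast regulatory light chain, had 65.0 and 28.5 normalized counts in SF, 887 and 540.1 in TF, 4411 and 8357 in SE and 5036 and 6088 in TE. Mybph, a short relative of myosin binding protein C, had 39.5 and 1.14 normalized counts in SF, 354 and 132 in TF, 2506 and 6384 in SE and 5180.5 and 4982 in TE.

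The slow and ventricular light chains had low counts. Myl2, the slow regulatory light chain, had 36.9 and 0 normalized counts in SF, 0 and 1.23 in TF, 4.29 and 42.0 in SE and 30.7 and 42.4 in TE, and no comparison of it passed. TF was at the limit of detection for Myl2, so that TE was at least 9.64-fold higher than the floor of TF. Myl3, the slow and ventricular essential light chain, had 8.92 and 0 normalized counts in SF, 3.89 and 0 in TF, 0 and 0 in SE and 0 and 2.31 in TE and was not tested. With Myl2 at its bound the medians of all 46 genes were the same, 2.70 in TE over TF and 1.57 in TF over SF.

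The binding proteins C differed from the rest of the class. Mybpc1, the slow form, had 1108 and 1051 normalized counts in SF, 1094 and 986 in TF, 1043 and 2875 in SE and 314 and 442 in TE. It was lower in TE than in TF (log2 fold change -1.41, standard error 0.40, adjusted p = 0.0284) and lower in TE than in SE (log2 fold change -2.35, standard error 0.41, adjusted p = 0.00846), and in satellite cells it did not pass (log2 fold change 1.05, standard error 0.39, adjusted p = 0.0568). In SE against SF it passed without a filter on low counts and once any 1 of the TF or TE libraries or SE replicate 1 was left out, and without SE replicate 2 the log2 fold change was 0.15 (adjusted p = 0.684). Both TE libraries were below all 6 others. Mybpc2, the fast form, had 178 and 239 normalized counts in SF, 110.4 and 91.0 in TF, 29.3 and 96.1 in SE and 24.7 and 10.02 in TE. It too was lower in TE than in TF (log2 fold change -2.47, standard error 0.75, adjusted p = 0.0375), and both TE libraries lay below both TF libraries. In satellite cells Mybpc2 had the same direction (log2 fold change -1.55 in SE over SF) and did not pass. Both SE libraries lay below both SF libraries, an order that 42.2% of all tested genes had. These calls in TE against TF were the only ones toward lower levels, and both rest on few libraries: that of Mybpc1 was lost without TF replicate 1 (log2 fold change -1.31, adjusted p = 0.0701) or TE replicate 1, and that of Mybpc2 was lost without any 1 of the TF or TE libraries or SF replicate 2, and with the replicate number as a block (adjusted p = 0.051).

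Titin and the M-band proteins rose in both cell types, with 4 of 4 genes called in SE over SF and in TE over TF. Ttn, the titin gene, spans chr2:76703980-76982547 on GRCm38 and had 3777 and 1769 normalized counts in SF, 17086 and 12564 in TF, 64507 and 95141 in SE and 42486 and 28397 in TE. The groups did not overlap in the order SF, TF, TE, SE, and TE against SE did not pass (log2 fold change -1.15, standard error 0.38, adjusted p = 0.113). It passed with DESeq2 (log2 fold change -1.17, adjusted p = 0.00932), without a filter on low counts, without SE replicate 1 (adjusted p = 0.0289) and without either SF library. Its rise in TE over TF (log2 fold change 1.31, standard error 0.38, adjusted p = 0.0301) was lost without TF replicate 2 or TE replicate 1. Myom1, myomesin, which crosslinks titin and myosin at the M-band, had 506 and 267 normalized counts in SF, 540.1 and 249.8 in TF, 1804 and 3938 in SE and 2005 and 1998 in TE, and it was the 1 gene of the class not called in TF against SF (log2 fold change 0.20, standard error 0.45, adjusted p = 0.795). Myom2 and Myom3, the other myomesins, had log2 fold changes of 6.64 and 6.98 in SE over SF and of 3.11 and 4.500 in TE over TF, and for both genes each TE library stood between the SE replicates.

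Not all of the 11 Z-disc genes, counting desmin, were called. In SE over SF 9 were higher (20.9% of all tested genes were), and in TE over TF 7 were higher (9.86%). In TF against SF 3 were higher (15.1%) and 1 was lower (9.13%). The counts in TF against SF were not far from those shares and are not read as particular to this class. Des, the desmin gene, whose intermediate filament links Z-discs and is already made by satellite cells, had 12218 and 15251 normalized counts in SF, 6244 and 5494 in TF, 20934 and 27712 in SE and 15094 and 15564 in TE. It was the single gene of the 46 that was lower in TF than in SF (log2 fold change -1.07, standard error 0.23, adjusted p = 0.00891), a call lost without TF replicate 2, and its rise in satellite cells was the smallest among the called genes (log2 fold change 1.01, standard error 0.23, adjusted p = 0.006). Actn2, the α-actinin of all striated fibers, had 748 and 169 normalized counts in SF, 752 and 325 in TF, 4309 and 9822 in SE and 5088 and 5898 in TE. Actn3, the α-actinin of fast fibers, had 1377 and 1336 normalized counts in SF, 1144 and 709 in TF, 2041 and 4154 in SE and 4024 and 4195 in TE, and SF lay above TF. Actn3 rose in satellite cells (log2 fold change 1.38, standard error 0.33, adjusted p = 0.0085) and in teratoma-derived cells (log2 fold change 2.21, standard error 0.34, adjusted p = 0.00129).

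Myoz1, a fast-fiber myozenin that binds calcineurin, had 48.4 and 21.7 normalized counts in SF, 67.5 and 55.4 in TF, 30.8 and 74.7 in SE and 10.5 and 26.2 in TE. It passed in no comparison, and SE overlapped SF and TF. Myoz2, the slow and cardiac myozenin, had 22.9 and 3.42 normalized counts in SF, 166 and 105 in TF, 144 and 321 in SE and 206 and 322 in TE, rose in satellite cells (log2 fold change 4.36, standard error 0.79, adjusted p = 0.00197) and did not pass in TE against TF (adjusted p = 0.28). Myot, myotilin, had 28.0 and 33.1 normalized counts in SF, 117 and 51.7 in TF, 195 and 565 in SE and 512 and 745 in TE, and its positive difference in TE over SE did not pass (log2 fold change 0.75, standard error 0.52, adjusted p = 0.489). Tcap, telethonin, which caps titin at the Z-disc, had 62.4 and 11.4 normalized counts in SF, 162 and 48.0 in TF, 135 and 423 in SE and 77.1 and 57.0 in TE. The TE and TF libraries of Tcap overlapped, and TE against TF did not pass. Its TE libraries were below both SE libraries, a difference that did not pass (log2 fold change -2.03, standard error 0.87, adjusted p = 0.228), and its call in SE over SF was lost without SF replicate 2 or SE replicate 2 (adjusted p = 0.133).

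Of the remaining Z-disc genes, Ldb3 (Cypher, an actinin-binding protein), Xirp1 and Synpo2l rose in both cell types. Synpo2l, which lies 2.41 kb from Myoz1 on chromosome 14, had 162 and 76.4 normalized counts in SF, 388 and 310.1 in TF, 3743 and 5389.9 in SE and 5679 and 5889.9 in TE, and the neighbors changed differently in value, as Synpo2l had a log2 fold change of 5.47 in SE over SF and Myoz1 had 0.79. Xirp2, the larger Xin repeat protein, had 222 and 154 normalized counts in SF, 447 and 439 in TF, 199 and 598 in SE and 360.2 and 311 in TE and stood on the threshold in SE against SF (log2 fold change 1.28, standard error 0.46, adjusted p = 0.0506), passing once any 1 of the TF or TE libraries or SE replicate 1 was left out. Ldb3 had log2 fold changes of 5.48 in SE over SF and 3.20 in TE over TF, and Xirp1 had 4.26 and 2.96.

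The 4 genes for assembly and stability of the sarcomere rose in both cell types. Smyd1, a methyltransferase of myosin assembly and the gene of this class with the highest mean, had 6.37 and 12.5 normalized counts in SF, 180.5 and 156 in TF, 1159 and 1863 in SE and 2017 and 2335 in TE. It passed in SE over SF (log2 fold change 7.47, standard error 0.40, adjusted p = 2.49e-06), in TE over TF (log2 fold change 3.75, standard error 0.30, adjusted p = 3.15e-05) and in TF over SF (log2 fold change 4.27, standard error 0.39, adjusted p = 0.000171). Unc45b, the myosin chaperone, had 158 and 103 normalized counts in SF, 83.1 and 14.8 in TF, 419 and 1103 in SE and 1142 and 1100.1 in TE, with both SF libraries above both TF libraries, and this order did not pass (log2 fold change -1.254, standard error 0.67, adjusted p = 0.204). Klhl41 and Klhl40, kelch proteins that stabilize nebulin and leiomodin, had log2 fold changes of 6.13 and 4.10 in SE over SF and of 2.30 and 2.18 in TE over TF. Klhl40 had 59.9 and 21.7 normalized counts in SF, 129.8 and 83.7 in TF, 257 and 951 in SE and 475 and 458 in TE, and its rise in TE was lost without TF replicate 2.

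Among the enzymes and myoglobin, 3 of 4 genes rose in satellite cells and 2 of 4 in teratoma-derived cells. Mb, myoglobin, had 118 and 42.2 normalized counts in SF, 144 and 129 in TF, 1377 and 4054 in SE and 244 and 255 in TE. It was called in SE over SF (log2 fold change 5.29, standard error 0.60, adjusted p = 0.00012) and not in TE over TF (log2 fold change 0.92, standard error 0.51, adjusted p = 0.211), and it had the lowest log2 fold change of the 46 genes in TE against SE (log2 fold change -3.42, standard error 0.53, adjusted p = 0.00502). Both TE libraries were under both SE libraries. Eno3, the muscle enolase, had 206 and 209.8 normalized counts in SF, 187 and 217 in TF, 3644 and 4055 in SE and 2179 and 2075 in TE. It rose in both cell types (4.40 and 3.45 on the log2 scale) and was called lower in TE than in SE (log2 fold change -0.83, standard error 0.17, adjusted p = 0.0197), a call lost without either TE library. Ckm, the muscle creatine kinase that regenerates ATP, had 259.9 and 192 normalized counts in SF, 487 and 204 in TF, 129 and 992 in SE and 807 and 724 in TE, and no comparison of it passed. Pygm, muscle glycogen phosphorylase and the gene of this class with the highest mean, had 754 and 877 normalized counts in SF, 796 and 561 in TF, 1909.7 and 4811 in SE and 1977 and 2216 in TE, and rose in satellite cells (log2 fold change 2.23, standard error 0.39, adjusted p = 0.0015) and in teratoma-derived cells (log2 fold change 1.68, standard error 0.38, adjusted p = 0.0101). Of the 2 remaining genes, Txlnb, a striated-muscle taxilin, had 106 and 87.8 normalized counts in SF, 84.4 and 41.8 in TF, 807 and 1489.7 in SE and 585 and 555 in TE, and Prob1, a proline-rich protein, had 141 and 95.8 normalized counts in SF, 70.1 and 71.4 in TF, 772 and 1435 in SE and 551 and 567 in TE. Both were called in SE over SF and in TE over TF, and in both genes TE lay below SE in all libraries (log2 fold changes -0.99 and -0.96, not called).

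Levels of different genes were compared per length, as normalized counts per kilobase of the longest coding transcript. On that scale, among the 47 genes, Des led in both SF libraries (4035 and 5037), ahead of Tpm1 (1145 and 1127). The leading gene of TF differed between the replicates, with Acta1 (3245) ahead of Tpm1 (2696) in replicate 1 and Tpm1 (2240.3) ahead of Des (1814) and Acta1 (1499) in replicate 2. In TE both libraries had the same 4 leading genes in the same order, Actc1 (17824 and 17804), Tnnt2 (15054 and 16342), Tnnc1 (14676 and 15121) and Myl4 (12134 and 12802), which are cardiac, slow or fetal isoforms. In SE Acta1 led in both libraries (10253 and 27221), followed by Myl1 (9435), Tpm1 (8809) and Tpm2 (7988) in replicate 1 and by Tnnt3 (16876), Myl1 (16708) and Myl4 (15125) in replicate 2.

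Ratios of isoform genes within a library do not depend on scaling, and their differences between groups do not depend on gene length. With 2 libraries against 2, an exact permutation test cannot go below p = 0.333, so these ratios are described and not tested. Apart from Myl1 (19.5%), Klhl41 (5.44%) and Acta1 (4.11%, mostly with Actb) under 2% of the 31-base words of each gene occurred in other genes. The log2 ratio of Acta1 to Actc1 was 3.97 and 5.06 in SF, 1.62 and 1.39 in TF, 0.90 and 0.82 in SE and -1.22 and -1.12 in TE. The ratio was below 0 in TE and above 0 in the other 3 groups, and the 4 groups did not overlap. Both transcripts have nearly the same length (1446 and 1473 bases). Tnnt3 to Tnnt2, fast to cardiac troponin T, followed the same order, with 4.95 and 5.24 in SF, 1.251 and 0.54 in TF, 0.09 and 0.11 in SE and -1.35 and -1.42 in TE. For Myl1 to Myl4 the log2 ratio was 1.80 and 1.70 in SF, 1.45 and 1.21 in TF, 0.88 and 0.34 in SE and -0.55 and -0.46 in TE, again with TE alone under 0.

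Most fast to slow pairs had lower log2 ratios in expanded than in fresh cells. The log2 ratio of Tnni2 to Tnni1 was 3.66 and 4.63 in SF and 1.69 and 2.03 in TF, and was below 0 in both expanded groups, with -2.13 and -1.45 in SE and -1.70 and -1.65 in TE. SE and TE overlapped in this ratio. For Tnnc2 to Tnnc1 it was 2.57 and 2.31 in TF, -0.32 and -0.38 in SE and -1.68 and -1.50 in TE, and was left out for SF, where Tnnc1 was at the limit in a library. Troponin T was the exception, because the log2 ratio of Tnnt3 to Tnnt1 stayed near 0 in every group, between -0.85 and 0.76, and the groups overlapped. Actn3 to Actn2 had log2 ratios of 0.88 and 2.98 in SF, 0.60 and 1.12 in TF, -1.08 and -1.24 in SE and -0.34 and -0.49 in TE, here with SE below TE. Mybpc2 to Mybpc1 had log2 ratios of -2.63 and -2.13 in SF, -3.30 and -3.42 in TF, -5.11 and -4.89 in SE and -3.61 and -5.33 in TE, below 0 in every group. Myoz1 to Myoz2 had log2 ratios of -1.29 and -0.91 in TF, -2.20 and -2.09 in SE and -4.17 and -3.57 in TE.

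**Figure D2:**
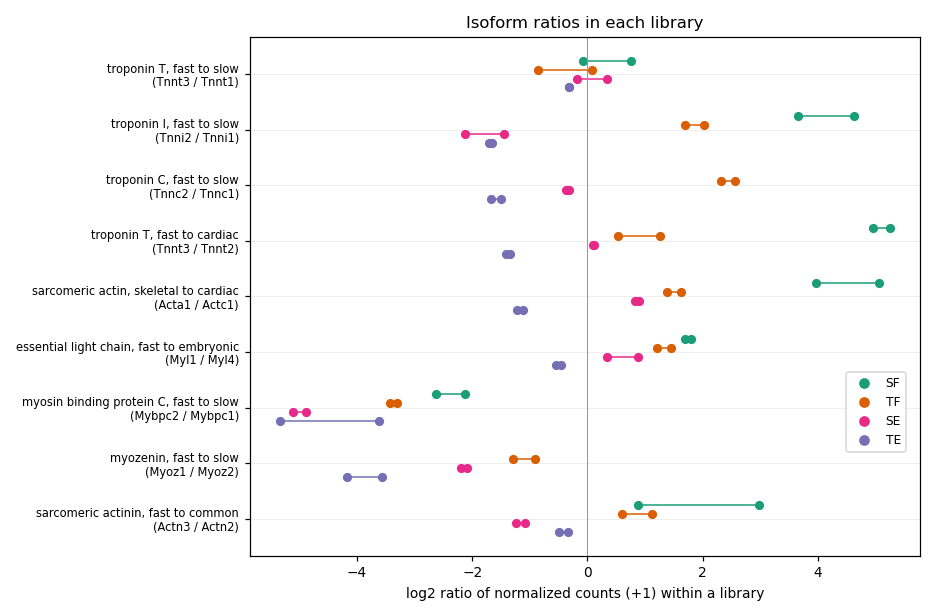
Log2 ratio of the normalized counts (plus 1) of paired isoform genes in each library; the 2 points joined by a line are the replicates of a group, and SF is left out where a gene was at the limit of detection. TE lies leftmost for the actin, cardiac troponin T and light chain pairs, and the troponin T fast to slow pair overlaps between groups.

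As classes, the 8 tested fast genes had a median log2 fold change of 3.63 in SE over SF (6 called higher), the 6 tested slow or cardiac genes had 4.77 (4 called higher), and the 3 fetal or cardiac genes (Actc1, Tnnt2, Myl4) had 8.88 (3 called higher). In TE over TF the medians of the fast, slow or cardiac, and fetal or cardiac genes were 1.99, 2.99 and 4.53, where the value for the slow or cardiac genes has Myl2 at its bound, since TF was at the limit of detection, and is 3.79 with the fitted change of Myl2. The difference between classes was not tested. A list of 10 cardiomyocyte markers was looked at beside the cardiac isoforms, and 6 of them are given by value. In TE, Nppa had 3.74 and 0 and Myl7 0 and 0 normalized counts, Nppb had 0 and 0 and Mybpc3 had 0 and 0, whereas Myh6 had 1356 and 1676 and Nkx2-5 had 364 and 239.8. The whole list of 10 cardiomyocyte markers summed to 1738 and 1939.7 in TE, 67.9 and 189.6 in SE, 415 and 201 in TF and 2554 and 1536 in SF. Of the 6 tested, 2 (Myh6, Nkx2-5) were higher in TE than in SE (background 3.15%) and 0 were lower (background 4.07%). In TE against TF the same 2 were higher (background 9.86%), 2 (Ryr2, Hcn4) were lower (background 16.2%), and Tnni3 and Sln were not called. The part of the cardiomyocyte markers in the level of cardiac isoforms was not tested.

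Muscle and non-muscle forms were compared in the same way. The log2 ratio of Eno3 to Eno1, the widely used enolase, was -2.57 and -2.73 in SF, -3.81 and -3.16 in TF, -2.81 and -2.54 in SE and -1.48 and -1.72 in TE. For Pygm to Pygb, the brain form, it was 0.79 and 0.54 in SF, -0.53 and -0.94 in TF, 2.12 and 4.28 in SE and 4.57 and 4.604 in TE, and the expanded cells lay above the fresh cells. For Ckm to Ckb, the brain creatine kinase, it was -0.60 and -1.52 in SF, -1.97 and -3.54 in TF, -2.15 and -0.03 in SE and -0.62 and -0.69 in TE. Des to Vim, vimentin, had log2 ratios of -0.77 and -0.84 in SF, -2.45 and -2.79 in TF, -1.74 and -0.52 in SE and -0.61 and -0.64 in TE. Of the 15 non-muscle counterparts, 3 were lower in TE than in SE (Vim -1.19, Eno1 -1.90 and Pygb -1.97 on the log2 scale), where 4.07% of all tested genes were.

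Whether expansion moved the genes alike in both cell types was tested by the difference between the changes, TE over TF minus SE over SF. This difference was called lower for 22 of the 46 genes (background 9.62%) and higher for 0 (background 4.7%), with a median of -2.39 against -0.18 over all genes. Both changes were positive in 21 of the 22 genes, with the smaller rise in teratoma-derived cells, and Mybpc1 was the exception. The largest differences were those of Tnnt2 (log2 fold change -5.06, standard error 0.63, adjusted p = 0.00109), Mb (log2 fold change -4.37, standard error 0.75, adjusted p = 0.00511) and Actc1 (log2 fold change -4.35, standard error 0.83, adjusted p = 0.00803). By class, 5 of 7 thin filament genes, 5 of 7 troponin genes, 4 of 7 light chain and binding protein genes, 3 of 4 titin and M-band genes, 1 of 11 Z-disc genes, 2 of 4 assembly genes and 2 of 4 enzyme genes were called. The same difference is, by arithmetic, TE over SE minus TF over SF, so the calls of those 2 comparisons restate it. In TF against SF, 24 of the 46 genes were higher (background 15.1%) and 1 was lower (background 9.13%). In TE against SE, 0 were higher (background 3.15%) and 4 were lower (background 4.07%). The starting level as a reason for the smaller rise was not tested. The call of Eno3 (-0.95) was lost under most alternatives, including median-ratio size factors (adjusted p = 0.0549), a scaling that moves the median difference of all genes by 0.139 and the median of SE over SF by -0.194. The number called lower was 34 without SE replicate 1, 22 without SE replicate 2 and 18 without TF replicate 1, and all 22 genes were among the 34.

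**Figure D3:**
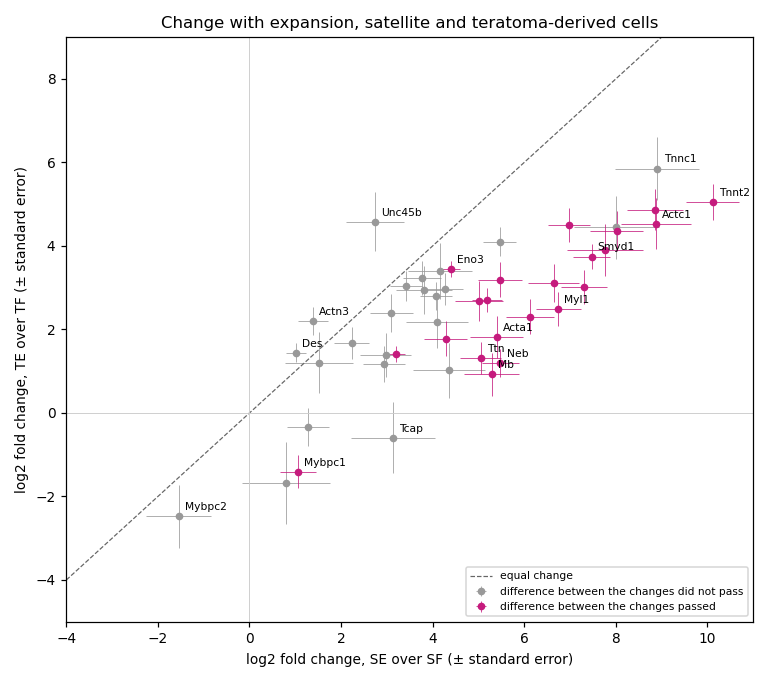
Log2 fold change of TE over TF against that of SE over SF for 45 genes (Myl2 is left out because TF was at the limit of detection), each with its standard error; filled in magenta are the 22 genes whose changes differed by the test, and the dashed line marks equal change. All 22 lie below the line, with Tnnt2 (10.11 in satellite cells, 5.05 in teratoma-derived cells) farthest to the right.

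The 4 genes called lower in TE than in SE were Mb, Mybpc1, Neb and Eno3, and the calls of Mb and Mybpc1 held without any 1 library. The 5 largest log2 fold changes among genes above the limit of detection were those of Actc1, Myot, Tnnt2, Myl2 and Tnnc1 (between 0.59 and 0.82), and none of these passed. For 16 of the 46 genes both TE libraries lay between the SE replicates, against 14.3% of all tested genes. Both TE libraries were below both SE libraries for 16 genes (26.9% of all genes) and above both for 5 (22.9%), which were Actc1, Tnnt2, Tnnc1, Synpo2l and Smyd1. Without SE replicate 2 the log2 fold changes of Actc1, Tnnt2, Myl4, Actn3 and Ckm were 1.75, 1.52, 1.11, 1.04 and 2.59. Without SE replicate 1 they were 0.26, 0.19, -0.25, 0.008 and -0.35. Without SE replicate 1 those of Acta1, Tnnt3, Ttn, Ldb3, Klhl41, Pygm, Txlnb and Prob1 were -1.73, -1.31, -1.40, -1.17, -1.595, -1.17, -1.36 and -1.34. Without SE replicate 2 these were -0.32, 0.04, -0.83, -0.008, -0.61, 0.17, -0.47 and -0.43. The comparison of TE with SE thus depended on which SE replicate was kept.

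The SE replicates differed in 1 direction. Replicate 2 was above replicate 1 in 46 of 46 tested genes, where 46.9% of all tested genes were higher in replicate 2. The median log2 ratio was 1.17, with a range of 0.10 to 3.02, against 0 over all genes, and 30 of the 46 genes were at least 2-fold higher against 14.6% of all genes. The 3 largest ratios were those of Myl2 (9.80-fold), Ckm (7.66-fold) and Klhl40 (3.70-fold). The 3 smallest were those of Tpm1 (1.07-fold), Eno3 (1.11-fold) and Des (1.32-fold). Isoform ratios were close in the replicates for some pairs and not for others. The log2 ratio of Tnnt3 to Tnnt2 was 0.09 and 0.11 and that of Acta1 to Actc1 was 0.90 and 0.82, whereas Mylpf to Myl2 gave 9.70 and 7.60, Pygm to Pygb 2.12 and 4.28 and Ckm to Ckb -2.15 and -0.03. Myog, the factor that starts terminal differentiation, had 3993 and 13510.4 in the SE libraries and 11175 and 11841 in TE, while Myod1, the myoblast factor, had 10502 and 10701 and 4826 and 4819. The adult fiber markers (Myh4, Myh2, Myh1, Pvalb, Atp2a1, Casq1, Myh7 and the list gene Actn3) summed to 42178 and 105256 in SE and 20333 and 22153 in TE. Single markers did not all follow the sum in TE against SE. Myh2 was called higher in TE (background 3.15%), and Myh4, Myh1 and Casq1 were called lower (background 4.07%). Pvalb, Atp2a1, Actn3 and Myh7 were not called. Some other lists were higher in SE replicate 2 too. The 8 smooth muscle contractile genes had 7255 and 24695, and the pericyte and smooth muscle markers, which share Acta2 and Myh11 with them, had 9357 and 26117. The fibro-adipogenic (3155 and 7688), haematopoietic (62.2 and 167), cardiomyocyte (67.9 and 189.6) and Schwann (54.4 and 66.9) markers were also higher. The endothelial (70.1 and 60.1) and pluripotent (68.7 and 54.1) markers and the non-muscle counterparts (238400 and 171181) were lower in SE replicate 2. The part of these in the SE replicate difference was not tested.

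The other groups varied less or in another direction. In TE the median log2 ratio of replicate 2 over replicate 1 was 0.06, with 29 genes higher and 17 lower, where 44.0% of all tested genes were higher. In TF replicate 2 was higher for 3 and lower for 43 of 46 genes, where 47.1% of all tested genes were higher. The median was -0.73, and 17 were at least 2-fold lower against 16.3% of all genes. In SF replicate 2 was higher for 9 and lower for 37 of 46, where 45.3% of all tested genes were higher. At least 2-fold lower were 15 against 25.4% of all genes, a count not far from that share and not read as particular to these genes. TF replicate 1, the replicate with the higher levels, also had 5792 normalized counts of the haematopoietic markers (Ptprc, Cd68, Csf1r, Itgam, Cd3e, Cd79a, Lyz2) where TF replicate 2 had 554, and the part of this in the difference was not tested. Without TF replicate 1, 36 genes were called higher in TE than in TF and 20 higher in TF than in SF, in place of 35 and 24.

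**Figure D4:**
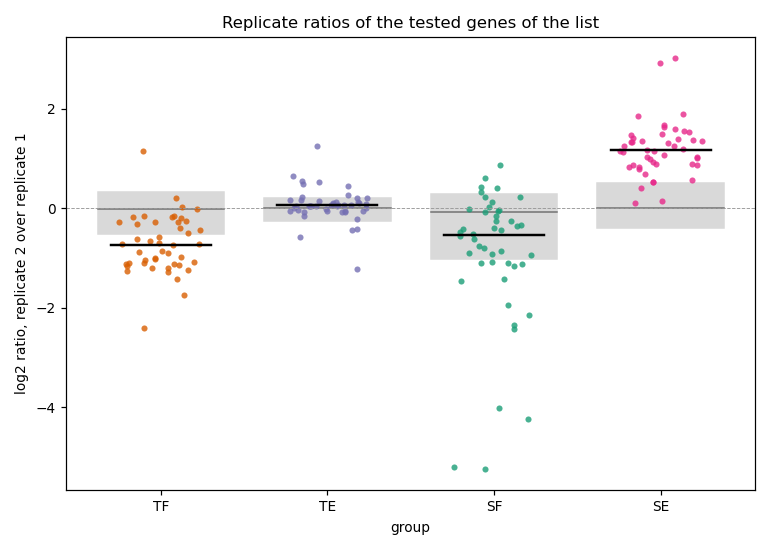
Log2 ratio of replicate 2 over replicate 1 for the 46 tested genes in each group (points, black line at their median), beside the quartiles (grey box) and the median (grey line) of all 17582 tested genes. In SE all 46 points lie above 0 with a median of 1.17, and in TE the median is 0.06.

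Other genes of the pathway, taken from lists of sarcomere, enzyme and control genes, were read in the same fit. Of all tested genes, 20.9% were higher and 19.8% lower in SE than in SF, and 9.86% and 16.2% in TE than in TF. In TE against SE these shares were 3.15% and 4.07%. Among the 33 genes that follow, the 6 lower in SE than in SF and the 1 higher in TE than in SE lay near these shares. Of 33 further sarcomere and Z-disc genes, 21 were higher and 6 were lower in SE than in SF, and 13 were higher and 3 were lower in TE than in TF. In TE against SE 1 was higher, Ankrd2, a titin-bound ankyrin protein (log2 fold change 4.18, standard error 0.63, adjusted p = 0.00423), and 5 were lower, led by Cmya5 (-3.35), myospryn, and Csrp3 (-2.23), muscle LIM protein. Ankrd2 had 15.3 and 12.5 normalized counts in SF, 114 and 55.4 in TF, 39.3 and 189.6 in SE and 2025 and 2058 in TE. Of 16 further muscle enzymes, 9 were higher and 1 lower in SE than in SF, and 1 was lower in TE than in SE (Aldoa, aldolase A, -1.02). Of 8 smooth muscle contractile genes, 1 was higher and 5 were lower in SE than in SF, and 3 were higher in TE than in SE: Actg2 (5.03), Tagln (2.06) and Myh11 (3.18).

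Of 9 differentiation factors, 5 were higher and 1 was lower in SE than in SF (20.9% and 19.8% of all tested genes). In TE against TF 6 were higher and 1 was lower (9.86% and 16.2% of all tested genes). Myog had 8.92 and 14.8 normalized counts in SF, 1328 and 1449 in TF, 3993 and 13510.4 in SE and 11175 and 11841 in TE. SF was near 0, TF lay above SF, and both expanded groups lay above TF. Myod1 had 6767 and 8837 normalized counts in SF, 637 and 930.2 in TF, 10502 and 10701 in SE and 4826 and 4819 in TE, was high in SF where the sarcomere genes were low, and was the 1 factor lower in TE than in SE (log2 fold change -1.11, standard error 0.23, adjusted p = 0.019).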

How the data were processed

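RNA of sorted or cultured cells was made into stranded total RNA libraries (SMARTer Pico v2), and the authors deposited 1 table of estimated counts per gene symbol, not normalized. The submitters' processing notes name kallisto 0.44.0, CASAVA and GRCm38/mm10, and how transcripts were summed to genes and which strand setting was used is not given in the sources used here. Whole numbers made up 74.4% to 84.4% of each library's values. The estimated counts were rounded and, after filterByExpr (17582 of 24980 genes kept), tested with edgeR 4.0.16 (R 4.3.3) in 1 quasi-likelihood fit over the 4 groups, with TMM normalization and Benjamini-Hochberg adjustment over all tested genes. The study's thresholds were used. Standard errors are the absolute log2 fold change divided by the square root of F. Levels are counts divided by median-ratio size factors, and ratios used a pseudocount of 1. The floor of 3 counts was between 2.15 and 3.90 normalized counts and covers counting error only. Gene lengths and positions came from GENCODE M21 and promoters from RefSeq.

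Groups and replicate numbers came from the sample labels. The 47 genes and all lists were chosen with earlier results of these data known. Values of every library are given for isoform pairs, for the gene of each role with the highest mean, for the 5 largest and 5 smallest changes of TE against SE and for the 3 genes at each end of the SE replicate ratio. Alternatives were median-ratio size factors, no filter, DESeq2 1.42.0, a replicate block, only the groups compared, each library left out, and a pseudocount of 0.5. On counts simulated for TE against SE (16830 genes), the fit recovered 37% of genes changed 2.5-fold and 74% of genes changed 6-fold, and 7.5% of its calls were false. The changed genes were drawn only from genes above a minimum mean count, so the recovery rates do not cover genes with low counts. All other genes were given the same mean in every group, unlike the real data. A common dispersion of 0.233 and 2 libraries a group limit the precision.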

Additional observations from a re-analysis of the deposited data

Results flagged for a closer look

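In 22 of the 46 tested genes the change with expansion differed between the cell types by edgeR's quasi-likelihood test of the difference itself. Values are log2 fold change of TE over TF minus that of SE over SF. Among thin filament genes the differences were those of Acta1 (-3.58), Actc1 (-4.35), Neb (-4.28), Lmod3 (-3.86) and Tpm1 (-1.79). Among troponins they were those of Tnnt1 (-2.47), Tnnt2 (-5.06), Tnnt3 (-2.33), Tnni1 (-3.98) and Tnnc2 (-2.51). Light chain and binding protein genes gave Myl1 (-4.26), Mylpf (-4.28), Myl4 (-3.66) and Mybpc1 (-2.46). Titin and M-band genes gave Ttn (-3.74), Myom2 (-3.53) and Myom3 (-2.48). The remaining genes were Ldb3 (-2.28), Smyd1 (-3.72), Klhl41 (-3.83), Mb (-4.37) and Eno3 (-0.95). All 22 were negative, so that each rose less, or fell, in teratoma-derived cells. Every one of the 22 was also called after SE replicate 1 was left out, 21 of them after SE replicate 2 was left out, and 18 after TF replicate 1 was left out. Groups of 2 libraries are too small for a check of single outlying libraries.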

How the results depend on the processing

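With 2 libraries a group and a common dispersion of 0.233, differences of a few fold can be missed. The counts of genes higher in SE than in SF, in TE than in TF and in TF than in SF stayed within 1.5 times of 40, 35 and 24 under every alternative run, and no log2 fold change of a called gene changed sign. Without a filter on low counts, 2 genes were higher and 13 lower in TE than in SE, 2 were lower in TF than in SF, and 1 had a larger rise in teratoma-derived cells. DESeq2 called 7 genes lower in TE than in SE. The cause of these shifts was not tested. Leaving out 1 library at a time gave 0 to 5 genes higher in TE than in SE (5 without SE replicate 2) and 2 to 12 lower (12 without SE replicate 1, 2 without either TE library). It gave 0 to 1 genes lower in SE than in SF (1 without SE replicate 2), 0 to 2 lower in TE than in TF (0 without TF replicate 1 or TE replicate 1) and 0 to 2 lower in TF than in SF (2 without TF replicate 1). The difference between the changes was called higher for 0 to 2 genes (2 without SE replicate 2) and lower for 18 to 34 (34 without SE replicate 1). A library left alone in its group was assumed to vary like the other groups. With the replicate number as a block, 1 gene was lower in TE than in TF, and the calls of Mybpc2 there and of Eno3 in the difference between the changes were lost, and no other call was lost. Nothing in the labels says that replicates with the same number share an animal or a day, and their deviations correlated between -0.03 and 0.08. Over the single genes, alternatives other than left-out libraries gave 1036 values with the same call, 53 with a call gained and 14 with a call lost. Leaving out libraries gave 1714, 81 and 45. Isoform ratios moved by less than the replicate spread with a pseudocount of 0.5. Leaving out a library cannot move the mean ratio of 2 libraries by more than their spread and says nothing of stability.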
